A study of Mus musculus with 8 samples.

Results

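Primitive endoderm derivatives are the cells that the authors' combined annotation labels parietal endoderm, visceral endoderm or extraembryonic (ExE) endoderm. They were taken by these 3 labels from the deposited cell table and numbered 218 of 28723 cells, with 120 in parietal endoderm, 51 in visceral endoderm and 47 in ExE endoderm. Chimeric mouse embryos were made by injecting Eomes-KO embryonic stem cells (ESC), which carry the red fluorescent protein tdTomato, into WT C57BL/6 blastocysts, and were collected at about E8.5. Embryos were pooled, at about 4 per tube, and sorted into 4 libraries of tdTomato+ Eomes-KO cells from 4 independent ESC clones and 4 libraries of tdTomato- WT host cells. WT host cells came from the same embryos as the Eomes-KO cells and lack the transgene. No library held injected WT ESC, so loss of Eomes and origin from an injected ESC cannot be told apart. The table gives 1 row per cell with labels, scores and quality measures. Gene counts were not analysed here, so the labels could not be checked against the defining genes Afp and Ttr (visceral and extraembryonic endoderm) and Sparc and Lamb1 (parietal endoderm).

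The primitive endoderm is set aside from the epiblast in the blastocyst. It gives the parietal endoderm, which spreads over the trophoblast and secretes Reichert's membrane, and the visceral endoderm, which covers the conceptus, takes up nutrients and later forms the endoderm of the visceral yolk sac. Some visceral endoderm cells move into the gut tube among definitive endoderm cells of epiblast origin. ExE endoderm is the reference atlas's name for extraembryonic visceral endoderm. ESC placed in a host blastocyst mainly join the epiblast. Eomes is a T-box transcription factor used in the trophoblast, the visceral endoderm and the early primitive streak.

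Libraries are named here by their genotype and number of cells. Eomes-KO libraries held 602, 1153, 3346 and 3465 cells, with a median of 8901 to 32559.5 UMIs per cell, and WT host libraries held 2414, 3791, 5819 and 8133 cells, with a median of 5124 to 11002. The WT host library of 5819 cells stands apart. It held 170 of the 214 WT host cells with these labels, and the edgeR results of these labels are given with and without it. Stages, scores and quality values pooled over WT host cells include it. For parietal endoderm such values rest mostly on it, since it held 114 of the 119 WT host cells. Over the 8 libraries, 80 cell barcodes occurred in 2 libraries, with 0 to 11 shared per pair of libraries. Only 2 cells of the 3 labels shared a barcode with another library, neither of them Eomes-KO, and in neither did the other cell carry the same label.

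Primitive endoderm derivatives were rare in every library and rarer among Eomes-KO than among WT host cells. They made up 4 of 8566 Eomes-KO cells (0.0467%, exact 95% Clopper-Pearson interval 0.0127% to 0.12%) and 214 of 20157 WT host cells (1.06%, 0.925% to 1.21%). The WT host share was 22.7 times that of Eomes-KO, with an exact 95% counting interval of 8.75 to 84.2. Without the WT host library of 5819 cells, the WT host share was 0.307% (44 of 14338 cells) and the ratio 6.57 (2.39 to 25.2). These intervals cover counting error only, and cells of 1 library are not replicates.

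By library, the Eomes-KO share was 0 of 602 cells, 0.260% (3 cells), 0.0299% (1 cell) and 0 of 3465 cells. The exact upper limits for the zeros are 0.611% of the library of 602 cells and 0.106% of that of 3465, and a floor of 3 cells is 0.498% and 0.0866% of them. The WT host shares were 0.166% (4 cells), 0.237% (9 cells), 2.92% (170 cells) and 0.381% (31 cells) in the libraries of 2414, 3791, 5819 and 8133 cells. The genotypes overlap, since the Eomes-KO library of 1153 cells lies above the 2 lowest WT host libraries. The mean was 0.0725% ± 0.126 in Eomes-KO and 0.926% ± 1.33 in WT host libraries (SD, n = 4 each), a difference that did not pass an exact permutation test (two-sided p = 0.086). Without the WT host library of 5819 cells the exact p was 0.17, where 4 against 3 libraries cannot go below 0.057.

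Cell numbers were then compared by the quasi-likelihood test of edgeR. Libraries were the replicates, and the size of a library was the number of all its cells. With the 3 labels joined, the log2 fold change was -4.03 (SE 1.31, adjusted p = 0.013). In that fit 51.4% of the 35 labels tested were called lower in Eomes-KO, so being called lower does not set these cells apart from the other labels. When the WT host library of 5819 cells was left out, the log2 fold change was -2.28 (adjusted p = 0.071) and the call was lost. It was also lost among cells with at least 10000 UMIs, which outside the 3 labels were 68.4% of Eomes-KO cells against 32.8% of WT host cells, at -2.63 (edgeR adjusted p = 0.053). There the mean shares differed by -0.19 percentage points, Eomes-KO minus WT host, in place of -0.85 (exact permutation test, two-sided p = 1). Taken as single labels, visceral endoderm and parietal endoderm passed as lower in Eomes-KO and ExE endoderm did not, or 2 of 3, where 51.4% of all 37 labels tested were called lower.

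Visceral endoderm was found in all 4 WT host libraries and in 1 Eomes-KO library. Eomes-KO libraries held 0, 1, 0 and 0 visceral endoderm cells and WT host libraries held 4, 5, 27 and 14. As shares these were 0%, 0.0867%, 0% and 0% in Eomes-KO against 0.166%, 0.132%, 0.464% and 0.172% in WT host libraries, so the point values of the genotypes did not overlap. Their counting intervals did, with exact upper limits of 0.611% for the Eomes-KO library of 602 cells and 0.482% for that of 1153 cells, above all 4 WT host shares. The means were 0.0217% ± 0.0434 and 0.233% ± 0.155 (SD, n = 4 each; two-sided exact permutation p = 0.029, the lowest that 4 against 4 can reach). In edgeR the log2 fold change was -3.87 (SE 1.24, adjusted p = 0.013), and leaving out the WT host library of 5819 cells gave -3.31, at an adjusted p of 0.035. With that library left out the ratio of WT host to Eomes-KO shares was 13.7 (exact counting interval 2.23 to 566), against 21.2 (3.64 to 856) with it. Without the Eomes-KO library of 3346 cells it was -3.26 (edgeR adjusted p = 0.058) and without that of 3465 cells -3.24 (0.059), so the call was lost both times. Without the Eomes-KO library of 1153 cells, which held the single Eomes-KO visceral endoderm cell, it was -6.25 (adjusted p = 0.0093), a fitted value against no Eomes-KO cell that depends on the prior count.

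Parietal endoderm was almost confined to 1 library. There were 0, 1, 0 and 0 parietal endoderm cells in Eomes-KO libraries and 0, 2, 114 and 3 in WT host libraries, the 114 cells making up 1.96% of the library of 5819 cells. The edgeR log2 fold change was -5.02 (SE 1.97, adjusted p = 0.035), but the mean shares did not pass an exact permutation test (two-sided p = 0.37), and without that library 6 cells were left, too few for the fit. The counting ratio of WT host to Eomes-KO shares was 50.6 (exact interval 8.90 to 2014) with the library and 2.99 (0.334 to 141) without it. The second interval includes 1, but both cover counting error only and are no test of genotype over libraries. The call was also lost without any 1 of the Eomes-KO libraries, at log2 fold changes of -7.38 to -4.38 (edgeR adjusted p = 0.069 to 0.098), and with doublet scores under 0.25, at -4.79 (0.061). The -7.38 was found without the Eomes-KO library of 1153 cells, which held the single Eomes-KO parietal endoderm cell. It is a fitted value against no Eomes-KO cell that depends on the prior count. By limma on log2 shares the log2 fold change was -1.41 (adjusted p = 0.41).

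ExE endoderm gave 0, 1, 1 and 0 cells in Eomes-KO libraries against 0, 2, 29 and 14 in WT host libraries. The shares overlapped, with 0.0867% in the Eomes-KO library of 1153 cells against 0.0528% in the WT host library of 3791 cells and none in that of 2414 cells. The log2 fold change was -2.79 (SE 1.37, edgeR adjusted p = 0.081), and leaving out the WT host library of 5819 cells gave -1.77, at an adjusted p of 0.27. In edgeR it passed with TMM scaling (adjusted p = 0.045), without the WT host library of 2414 cells (0.046) and without that of 3791 cells (0.043). DESeq2's own test with its ratio size factors gave -3.62 (adjusted p = 0.0052), where all labels shifted by a median of -0.95. ExE endoderm did not pass by limma on log2 shares (-1.04, adjusted p = 0.41). Nor did it in edgeR with at least 10000 UMIs (-1.96, adjusted p = 0.17) or without the WT host library of 8133 cells (0.10). Leaving out any Eomes-KO library gave edgeR adjusted p-values of 0.076 to 0.20.

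**Figure D1:**
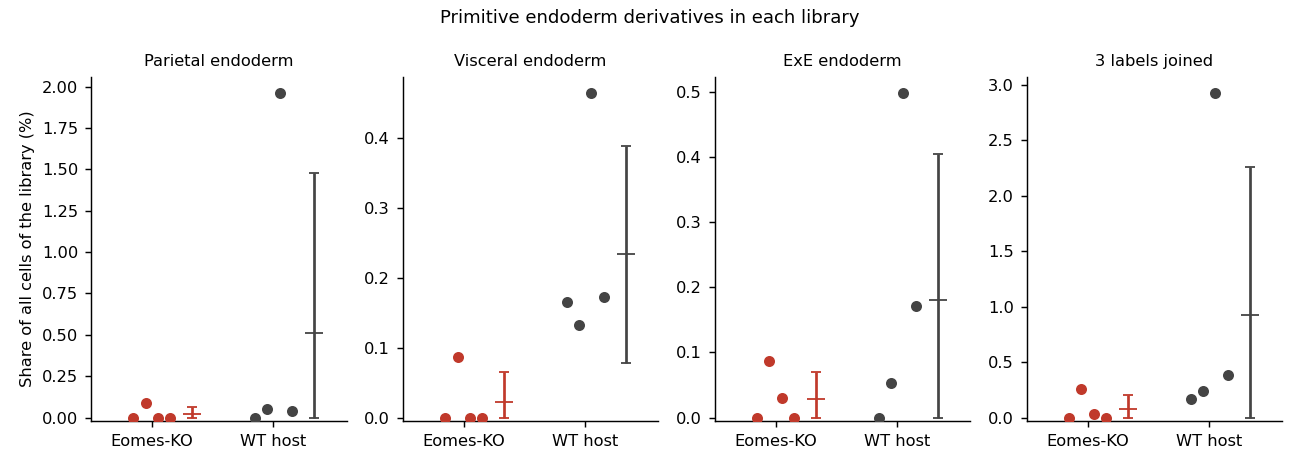
Share of all cells of a library (%, vertical axis, a scale of its own in each panel) with each label and with the 3 labels joined, in Eomes-KO (red, left) and WT host (grey, right) libraries. Each point is a library, and bars show mean and SD (n = 4) cut at 0. The WT host library of 5819 cells lies highest in every panel, at 1.96% for parietal endoderm, and visceral endoderm is the panel in which the points of the genotypes do not overlap.

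The makeup of the 3 labels differed between the WT host library of 5819 cells and the others. Parietal endoderm made up 67.1% of its 170 cells (exact 95% interval 59.4% to 74.1%), visceral endoderm 15.9% and ExE endoderm 17.1%. In the other 3 WT host libraries together, parietal endoderm made up 11.4% of 44 cells (3.79% to 24.6%), visceral endoderm 52.3% and ExE endoderm 36.4%. These intervals cover counting error only, and with 1 library on one side the difference in makeup was not tested over libraries. All 4 WT host libraries held visceral endoderm, while that of 2414 cells held neither of the other labels.

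ExE ectoderm, the trophoblast-derived tissue at the proximal side of the egg cylinder, had its highest share in the same WT host library as these cells. It counted 15, 24, 496 and 124 cells in the libraries of 2414, 3791, 5819 and 8133 cells, or 0.621%, 0.633%, 8.52% and 1.52% of all cells. Of ExE ectoderm and the 3 labels together, the 3 labels made up 21.1%, 27.3%, 25.5% and 20.0%. The exact 95% intervals of these values all overlap (widest in the library of 2414 cells, 6.05% to 45.6%). They cover counting error only, so their overlap does not show that the libraries are alike. Left without parietal endoderm, the corresponding values were 21.1%, 22.6%, 10.1% and 18.4%, with the lowest in the library of 5819 cells. Of visceral endoderm, ExE endoderm and gut together, visceral and ExE endoderm made up 3.39%, 5.74%, 19.6% and 7.71%, with the highest in that library. Gut, the embryonic endoderm of the same embryos, did not have its highest share there. Its share was 4.72%, 3.03%, 3.94% and 4.12% of all cells. How much tissue around the embryo was kept at dissection was not recorded in the labels, and its part in the spread between libraries was not tested.

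Eomes-KO libraries held 1 ExE ectoderm cell and 4 cells of the 3 labels, too few to say whether these labels go together. The single Eomes-KO cell labelled ExE ectoderm was in the library of 602 cells, which held no primitive endoderm derivative. Gut counted 0, 2, 3 and 5 cells in the Eomes-KO libraries of 602, 1153, 3346 and 3465 cells. In edgeR, gut had a log2 fold change of -5.06 (SE 0.52, adjusted p = 3.6e-06) and ExE ectoderm one of -7.44 (SE 1.43, adjusted p = 0.00043). Whether these differ from the values of the 3 labels was not tested.

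**Figure D2:**
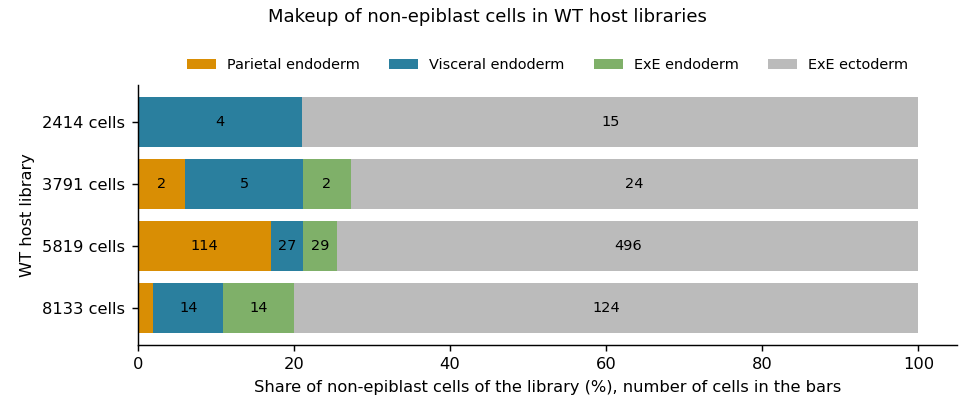
Parietal endoderm, visceral endoderm, ExE endoderm and ExE ectoderm as shares (%, horizontal axis) of the cells with these labels in each of the 4 WT host libraries, with the number of cells in the bars. The bar with no number is 3 parietal endoderm cells in the library of 8133 cells. The 3 endoderm labels end between 20.0% and 27.3% in all 4 libraries, and parietal endoderm takes the largest part of that in the library of 5819 cells.

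The original and extended atlas annotations, from which the combined one was built, gave nearly the same names. All 218 cells carried their combined label as original atlas label. All 120 parietal and all 51 visceral endoderm cells carried it as extended label too. Of the 47 ExE endoderm cells, 40 did, and the other 7, all WT host (5 in the library of 5819 cells and 2 in that of 8133), were visceral endoderm in the extended annotation. These 7 had high scores in both, with a median of 0.933 for the original and 1 for the extended label. The score gives, of the 15 atlas cells nearest to a cell, the fraction with that label. Conversely, 12 gut cells, all WT host and found in all 4 libraries (1, 2, 4 and 5 cells), were visceral endoderm in the extended annotation. Their scores were lower, with a median of 0.7 for gut and 0.5 for visceral endoderm. Their mitochondrial and ribosomal percentages had medians of 2.96% and 22.7%. Together, 70 cells (1 Eomes-KO and 69 WT host) carried the extended label visceral endoderm, against 51 with the combined one.

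Visceral endoderm had lower label scores than parietal and ExE endoderm. All 15 nearest atlas cells carried the label (a score of 1) for 118 of 119 WT host parietal endoderm cells and 39 of 45 ExE endoderm cells, but for 20 of 50 visceral endoderm cells (40%), against 48.1% of all other WT host cells. A score under 0.6 was found in 8 visceral endoderm cells, 1 ExE endoderm cell and no parietal endoderm cell of WT host libraries. The lowest score was 0.533. Definitive endoderm scored lower still, with a score of 1 in 10 of 64 WT host cells (15.6%) and under 0.6 in 12 (18.8%), and gut had a score of 1 in 69.1%. Of the 119 parietal endoderm cells, 114 came from the WT host library of 5819 cells, so their scores describe mostly that library.

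Parietal endoderm cells also fell on few atlas cells. The 119 WT host parietal endoderm cells had 34 different nearest atlas cells, the most used of them nearest to 21 cells, and the 5 most used took 49.6%. Visceral endoderm cells spread over 46 atlas cells for 50 cells, ExE endoderm over 44 for 45 cells, and gut over 546 for 793 cells. The number of atlas cells with each label, which limits these counts, was not analysed here. Of the 119 parietal endoderm cells, 114 came from the WT host library of 5819 cells, and nearest atlas cells were not counted by library.

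Cells of all 3 labels were mapped to earlier atlas stages than the rest of their embryos. Of 119 WT host parietal endoderm cells, 118 were mapped to E7.5 and 1 to E8.0. The library of 5819 cells held 114 of them, 113 at E7.5. In the libraries of 3791 and 8133 cells, 2 of 2 and 3 of 3 were at E7.5. Visceral endoderm cells were mapped to E7.5 (17 cells), E7.75 (25), E8.0 (6) and E8.5 (2), with none at E8.25. ExE endoderm reached later stages, with 10 cells at E7.5, 23 at E7.75, 2 at E8.0, 3 at E8.25 and 7 at E8.5. All other WT host cells were mostly later, with 0.963% at E7.5, 40.0% at E8.25 and 27.5% at E8.5. Gut, also endoderm, had 3.15% at E7.5 and 26.2% at E8.5, while ExE ectoderm had 66.8% at E7.75. The 5 stages are those of the atlas cells used for mapping, whose makeup by label was not analysed here, so a mapped stage need not be the cell's own age.

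Within WT host libraries, the 3 labels joined averaged 53.9% of cells mapped to E7.5 against 0.889% for the other cells, and were higher in 4 of 4 libraries. Visceral endoderm alone averaged 41.4% against 1.43%, again higher in 4 of 4. By library, 2 of 4, 2 of 5, 5 of 27 and 8 of 14 visceral endoderm cells were mapped to E7.5. In the library of 5819 cells 18 of 27 were mapped to E7.75. For E8.5, the visceral endoderm share averaged 3.57% against 26.9% and was lower in 4 of 4 libraries. An exact sign-flip test over 4 libraries cannot go below p = 0.13, the value found in each of these comparisons, so none could pass.

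**Figure D3:**
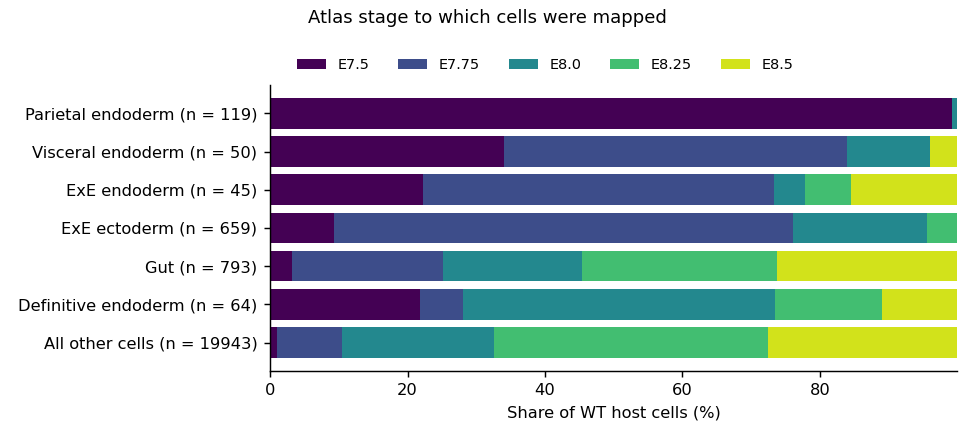
Share of WT host cells (%, horizontal axis) mapped to each atlas stage (colours, E7.5 to E8.5) for the 3 labels, for ExE ectoderm, gut and definitive endoderm, and for all cells outside the 3 labels, with the number of cells beside each name. Parietal endoderm lies almost wholly at E7.5 (118 of 119 cells), visceral and ExE endoderm mostly at E7.5 and E7.75, and all other cells mostly at E8.25 and E8.5.

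Quality measures of these cells differed from those of the other cells of the same library. The ribosomal percentage, the share of a cell's UMIs from ribosomal genes, had medians for the 3 labels joined of 21.2%, 21.6%, 21.4% and 21.2% in the WT host libraries of 2414, 3791, 5819 and 8133 cells. It averaged 21.3% against 25.8% for other cells and 24.6% for gut, and was lower than either in 4 of 4 libraries. The mean difference was -4.50 percentage points ± 0.807 from other cells and -3.22 ± 0.266 from gut (SD, n = 4 libraries; exact sign-flip test, two-sided p = 0.13 each, the smallest possible). Each label gave the same direction, with -3.87 points for visceral endoderm over 4 libraries and, over the 2 WT host libraries with at least 3 cells of the label, -3.98 for parietal and -5.07 for ExE endoderm.

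Of the 3 labels, visceral endoderm had the highest median mitochondrial percentage of UMIs. Numbers of mitochondrial UMIs per cell were not compared. Its median mitochondrial percentage was 3.39%, 3.09%, 4.03% and 2.95% in the WT host libraries of 2414, 3791, 5819 and 8133 cells. It averaged 3.36% against 1.69% for other cells, a difference of 1.68 points ± 0.38, and stood 1.21 ± 0.468 points above gut (SD, n = 4), higher in 4 of 4 libraries both times (exact sign-flip p = 0.13 each). At least 4% was found in 17 of 50 WT host visceral endoderm cells (34%), 17.8% of ExE endoderm, 0.84% of parietal endoderm, 4.54% of gut and 1.26% of all cells outside the 3 labels. No visceral endoderm cell reached 4% in the libraries of 2414 and 3791 cells, where the highest values were 3.62% and 3.90%. The pooled 34% thus rests on the libraries of 5819 and 8133 cells. Cells outside the 3 labels also had their highest median, 1.93%, in the library of 5819 cells. The highest value in the whole table was 4.99%, so cells beyond it are not in the table, and visceral endoderm lay closest to that limit.

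Visceral endoderm cells also had fewer UMIs and genes than the cells around them. Their median was 4124, 4145, 6034 and 4216 UMIs in the WT host libraries of 2414, 3791, 5819 and 8133 cells, a mean difference of -0.89 ± 0.457 on the log2 scale and of -687 ± 350.0 genes from other cells (SD, n = 4, lower in 4 of 4 libraries, exact sign-flip p = 0.13 each). The table holds no cell under 1500 genes or 3163 UMIs. Within the WT host library of 5819 cells, under 2000 genes were detected in 3 of 27 visceral, 9 of 29 ExE and 2 of 114 parietal endoderm cells, against 4.05% of its cells outside the 3 labels. In the shallowest WT host library, that of 8133 cells, the counts were 11 of 14 visceral, 7 of 14 ExE and 1 of 3 parietal endoderm cells, against 47.7%. At least 10000 UMIs were found in 1 of 50 visceral, 13 of 45 ExE and 21 of 119 parietal endoderm cells over the WT host libraries, which differ in depth. How many cells of these labels lay beyond these limits in either genotype was not analysed here.

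ExE endoderm was the most spread of the labels in its mitochondrial percentage. Of 45 WT host cells, 7 lay under 1%, between 0.17% and 0.94%, while no WT host visceral or parietal endoderm cell did. These 7 cells had 3667 to 8030 UMIs, doublet scores of at most 0.11 and a label score of 1, and came from the WT host libraries of 3791 cells (2 cells) and 5819 cells (5). Values under 1% were found in 10.6% of all cells outside the 3 labels in WT host libraries and in 2.90% of gut.

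Doublet scores, where a higher score marks a cell more like a simulated or co-expressing doublet, differed between libraries. In the WT host library of 5819 cells the median was 0.07 for parietal and 0.1 each for visceral and ExE endoderm, against 0.19 for all cells outside the 3 labels. In that of 8133 cells all 3 parietal endoderm cells scored between 0.28 and 0.38, and the medians were 0.2 for visceral and 0.18 for ExE endoderm, against 0.17. Visceral endoderm had 0.1 and 0.08 in the libraries of 2414 and 3791 cells, against 0.17 in each, and so was lower in 3 of 4 libraries, with a mean difference of -0.055 ± 0.0574 (SD, n = 4; exact sign-flip test, two-sided p = 0.25).

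**Figure D4:**
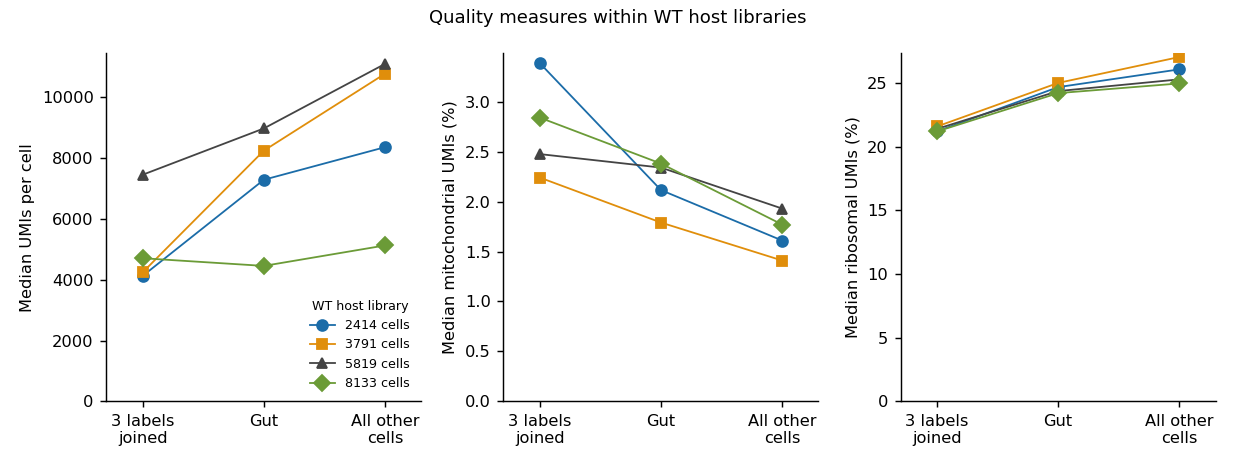
Median UMIs per cell, median mitochondrial percentage and median ribosomal percentage (vertical axes) of the 3 labels joined, of gut and of all cells outside the 3 labels, with 1 line for each of the 4 WT host libraries. The ribosomal percentage of the 3 labels lies at 21.2% to 21.6% and below gut in every library, and their mitochondrial percentage lies above gut and all other cells in every library.

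Of the 4 Eomes-KO cells with these labels, 3 were alike in label score and ribosomal percentage, and the parietal endoderm cell stood apart. In the library of 1153 cells, the ExE endoderm cell had 20866 UMIs, more than all 45 WT host ExE endoderm cells, with 2.78% mitochondrial and 19.2% ribosomal UMIs, a label score of 1 and a mapped stage of E8.25. The visceral endoderm cell had 11101 UMIs, more than 49 of 50 WT host visceral endoderm cells, with 4.41% mitochondrial and 19.7% ribosomal UMIs, a score of 1 and a mapped stage of E7.75. In the library of 3346 cells, the ExE endoderm cell had 43631 UMIs, 4.28% mitochondrial and 20.0% ribosomal UMIs, a score of 1 and a mapped stage of E7.5. These 3 cells thus had the low ribosomal percentage of WT host cells with the same labels, below the medians of their own libraries (27.5% and 27.2%). Their mitochondrial percentage lay above those medians (1.49% and 1.34%). The library medians were 19296 UMIs for that of 1153 cells and 16995 for that of 3346. The visceral endoderm cell lay below its library's median, while the ExE endoderm cell with 43631 UMIs had more than every other cell of its library, of which the next had 42090.

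The Eomes-KO parietal endoderm cell differed from the WT host cells with its label. It had 7332 UMIs, 1706 genes, 0.05% mitochondrial and 32.3% ribosomal UMIs. Its mitochondrial percentage lay below, and its ribosomal percentage above, those of all 119 WT host parietal endoderm cells. Its label score of 0.733 was below all 119 as well, and it was mapped to E8.0 with a stage score of 0.333, meaning that this share of its nearest atlas cells came from that stage. Doublet scores of the 4 Eomes-KO cells were 0.23, 0.02, 0.15 and 0.27 for the ExE endoderm, parietal endoderm and visceral endoderm cells of the library of 1153 cells and the ExE endoderm cell of that of 3346. The library medians were 0.24 and 0.2. Whether any of the 4 is a WT host cell that passed the tdTomato sort was not tested.

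**Figure D5:**
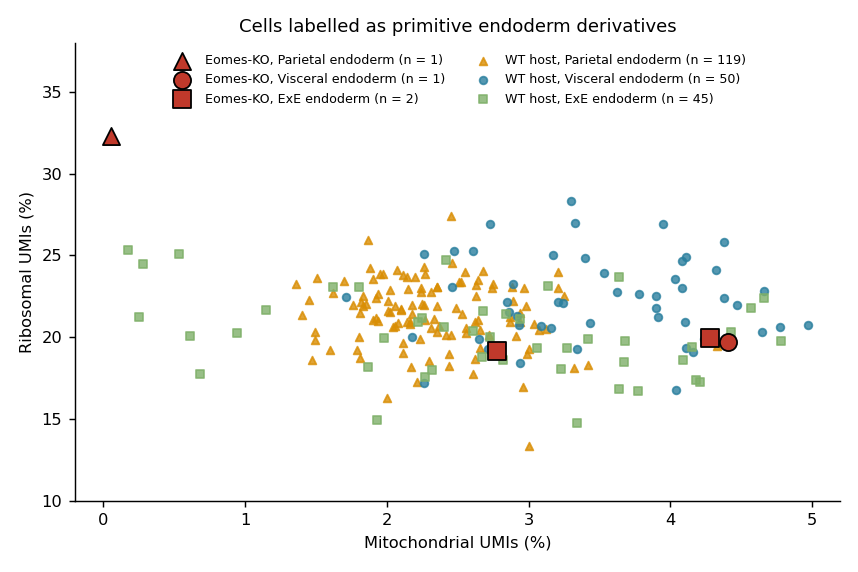
Mitochondrial (%, horizontal axis) and ribosomal (%, vertical axis) share of UMIs of the 218 cells with these labels, with the 4 Eomes-KO cells as large red symbols and the 214 WT host cells as small ones, by label. The Eomes-KO parietal endoderm cell stands alone at 0.05% and 32.3%, the other 3 Eomes-KO cells lie among WT host cells, and 7 WT host ExE endoderm cells lie under 1% mitochondrial UMIs.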

How the data were processed

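Whole chimeric embryos at E8.5 were dissociated, sorted by tdTomato and profiled with 10x 3' v3 chemistry. UMI counts were made by the authors in Cell Ranger 6.0.1 against mm10, per the submitters' processing notes, filtered cells, removed those with a doublet score above 0.5, and transferred labels and stages from the 15 nearest atlas cells of each cell. The deposited table holds UMI counts per cell without normalization, the number of genes, mitochondrial percent and ribosomal percent, the authors' doublet score, and label and stage scores that the authors give as the fraction of nearest atlas cells. The table holds fewer cells than the study states. The authors left cells with these labels out of their own abundance tests.

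Genotype came from the tdTomato column and library from the library name. The number of cells of each label in each library was compared in R 4.3.3 by glmQLFit and glmQLFTest of edgeR 4.0.16. Genotype was the only term, library size was all cells, labels under 10 cells were left out, and p-values were adjusted after Benjamini-Hochberg and called at 0.05. The SE given with an edgeR log2 fold change is its absolute value divided by the square root of the quasi-likelihood F statistic. It is an approximation, as edgeR itself gives none. The study's pool term could not be fitted. Shares were compared by exact permutation (70 arrangements) and quality within WT host libraries with at least 3 cells of a label by exact sign flips (scipy 1.17.1). The sign-flip tests covered 15 pairs of label and measure against other cells, with adjusted p of at least 0.469, and none could pass. Binomial intervals are Clopper-Pearson at 95%. The edgeR fit was first run on simulated cell numbers with a dispersion of 0.1. It called 95.5% of labels set 16-fold lower and 0.963% of unchanged ones. WT host shares of the joined labels had an SD above their mean (0.926% ± 1.33), a wider spread than was simulated. The simulation therefore gives no error rate for these labels. The floor is 3 cells per library, so the number of cells sets the precision. Each replicate is 1 library of pooled embryos.

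The members and lists were chosen with earlier results of these data known. Beside the 3 labels, the text names ExE ectoderm, gut and definitive endoderm as the most like labels, and any atlas label carried by at least 5 of the cells. Alternatives were TMM factors in edgeR, the test of DESeq2 1.42.0 with its ratio size factors, and limma 3.58.1 on log2 shares with 0.5 cells added. Further ones were other denominators, annotations and cell filters, and leaving out each library. The joined labels as a quality group, ExE ectoderm joined to them, and the E7.5 share were added after the data were seen.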

Additional observations from a re-analysis of the deposited data

Results flagged for a closer look

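Dixon's test was run on 18 groups of 4 libraries and marks about 1 in 20 by chance, but groups in which most libraries are at 0 are marked by any single cell. The Eomes-KO library of 1153 cells lay far above the other Eomes-KO libraries in visceral endoderm and in parietal endoderm (0.0867% each, 1 cell each) and in the 3 labels joined (0.260%). The WT host library of 5819 cells lay far above the other WT host libraries in parietal endoderm (1.96%), visceral endoderm (0.464%) and the 3 labels joined (2.92%). It also had the highest median UMIs of visceral endoderm (6034) and the highest median number of genes of the 3 labels joined (2578). The median doublet score of visceral endoderm was 0.2 in the WT host library of 8133 cells, above the other 3.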

How the results depend on the processing

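With the 3 labels joined, the edgeR log2 fold change was -2.63 with cells of at least 10000 UMIs (adjusted p = 0.053) and ranged between -5.84 and -2.28 when 1 library was left out, with -2.28 (adjusted p = 0.071) once the WT host library of 5819 cells was dropped. With the extended atlas labels, 43 of 72 labels were lower in Eomes-KO, against 19 of 37. Under limma on log2 shares parietal endoderm had -1.41 (adjusted p = 0.41). Against the fold changes with all cells as library size, all labels shifted by a median of -0.10 under TMM and -0.95 under DESeq2's ratio size factors on the log2 scale. Differences that rest on 2 WT host libraries, as for parietal and ExE endoderm in UMIs and genes against gut, changed sign with the library left out. DESeq2 gave no p for parietal endoderm, the minimum of 50 cells left out ExE endoderm, and the minimum of 10000 UMIs left too few visceral endoderm cells. No paired analysis was possible because the library names do not say which embryo pool a library came from. With 0 to 3 cells per Eomes-KO library, the number of cells limits every statement on single labels.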
